A study of Mus musculus with 14 samples.

Results

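The 9 genes described here act in ADP-ribosylation and in the response to DNA damage: Hpf1, Parp1, Parp2, Sprtn, Brca1, Brca2, Atm, Atr and Chek1. They were 9 of the 20242 gene symbols listed for 14 single mouse embryos made by somatic cell nuclear transfer (SCNT). Hpf1 and Sprtn were chosen by their RPKM values, which differed between treatments in these embryos, so their values are a description and carry no test. The other 7 were not chosen for such differences and were tested. Each embryo gave 1 RNA-seq library at the two-cell stage, and levels are RPKM, the reads on a transcript corrected for its length in kilobases and for the depth of the library.

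All embryos were of the B6D2F1 strain, with oocytes from females aged 8 to 10 weeks and cumulus cells, the somatic cells around the oocyte, as donors of nuclei. TSA (trichostatin A, a histone deacetylase inhibitor) was given at 50 nM from 0 to 8 h after activation began. VC (vitamin C, a cofactor of oxygenases that demethylate histones and DNA) was given at 10 µg/ml, from 0 to 8 h or from 8 to 15 h. There were 3 embryos each of TSA(0-8h)+VC(8-15h), control and TSA(0-8h), 2 each of VC(8-15h) and TSA(0-8h)+VC(0-8h), and 1 of VC(0-8h). Every embryo, controls included, was activated with strontium chloride and cytochalasin B and cultured with deionized serum albumin. The zona pellucida was removed before RNA was taken, and collection was at 28 h, counted from nuclear transfer in the labels and from activation in the study's text. Fertilized embryos were not analysed here, so the control is an untreated cloned embryo.

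PARP1 and PARP2 bind DNA breaks and attach ADP-ribose chains to proteins around the break. HPF1 joins either enzyme at the break and directs the modification to serine residues. SPRTN is a protease that clears proteins crosslinked to DNA so that replication can pass. ATM responds to double-strand breaks and ATR to single-stranded DNA at stalled forks. CHEK1 is the kinase that ATR activates to hold the cell cycle, and BRCA1 and BRCA2 act in repair by homologous recombination. In the mouse two-cell embryo, messages stored in the oocyte are being replaced by transcripts of the newly active genome.

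Hpf1 and Sprtn are the 2 members chosen for their levels, and the sequence around the start of each is shown for that reason, from 250 bases before to 50 bases after it (RefSeq, GRCm38.p6, plus strand for both, 5′ to 3′). The windows are chr8:60890178-60890477 for Hpf1 and chr8:124897644-124897943 for Sprtn. Capitals mark every CG dinucleotide, the site of DNA methylation.
Hpf1: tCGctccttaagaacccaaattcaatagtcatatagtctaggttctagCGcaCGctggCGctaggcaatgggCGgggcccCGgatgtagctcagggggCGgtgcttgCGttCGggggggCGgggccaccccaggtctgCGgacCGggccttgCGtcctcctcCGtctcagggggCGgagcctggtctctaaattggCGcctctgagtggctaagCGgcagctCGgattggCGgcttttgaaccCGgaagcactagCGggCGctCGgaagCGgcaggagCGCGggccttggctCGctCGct
Sprtn: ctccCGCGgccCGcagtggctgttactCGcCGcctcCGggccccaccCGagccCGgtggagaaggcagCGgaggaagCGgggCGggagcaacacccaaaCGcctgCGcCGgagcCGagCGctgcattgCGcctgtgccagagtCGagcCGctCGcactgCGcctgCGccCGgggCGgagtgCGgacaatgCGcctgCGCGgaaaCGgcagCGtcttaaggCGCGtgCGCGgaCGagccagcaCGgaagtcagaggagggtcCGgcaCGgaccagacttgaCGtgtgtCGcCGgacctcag
The Hpf1 window held 28 CG dinucleotides and 14.2% of all 32851 promoter windows of this length held as many or more. The Sprtn window held 41, a count that 3.46% of the windows reached. The other 7 members had 19 to 28, above the median of 7 over all windows. The motif GGGCGG, a GC box searched on both strands, occurred 4 times in the Hpf1 window and 2 times in the Sprtn window, and 35.7% of all windows held at least 1. Such matches are letters only.

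In the build of the deposited values, mm9, Hpf1 spans chr8:63369215-63386377 on the plus strand and Sprtn spans chr8:127421786-127427713 on the plus strand. Both are protein-coding genes, listed in the GENCODE M1 annotation under the older names 2700029M09Rik and Gm505, and no other annotated gene overlaps either. RPKM was counted over the exons of 1 RefSeq transcript of each. The gene Exoc8 starts 180 bases from Sprtn on the opposite strand. Its level ranged from 0.246 to 107 RPKM in embryos given VC and from 0.157 to 26.9 RPKM in the others, so these overlapped, and its Pearson correlation with Sprtn was 0.38 over the 14 embryos of log2(RPKM+1).

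Between 3021540 and 13589389 reads were counted per embryo, and 3130 to 6231 genes reached 1 RPKM. VC(8-15h) replicate 2 had the fewest such genes, and the 3 TSA(0-8h) embryos had 3337 to 4005. Summed oocyte markers (12 genes, of which 0 to 2 were at 0 in an embryo) were 5238 to 16732 RPKM with TSA(0-8h), 1773 to 6917 in controls and 1687 to 4317 in the other 8 embryos. Summed markers of the two-cell embryo (13 genes, 0 to 6 at 0) were 8.35 to 372 RPKM in the 6 embryos without VC and 204 to 1175 in the 8 with VC. Of 13 cumulus cell markers, 8 to 13 were at 0 in each embryo, including Fshr, Inha and Inhba in all 14, and the summed level, 0 to 144 RPKM, was mostly Amhr2. Each library came from 1 embryo at the two-cell stage. RPKM is relative to the reads counted in it, so the amount of RNA per embryo was not measured. The embryos were sequenced in 3 lanes of 5, 6 and 3 embryos, and no lane held only 1 treatment.

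Hpf1 had the highest mean level of the 9 messages and was highest after TSA(0-8h). It was at 173, 152 and 118 RPKM in the control embryos and at 812, 1104 and 777 RPKM in the TSA(0-8h) embryos. The lowest TSA(0-8h) embryo was thus 4.49-fold above the highest control, and the groups did not overlap. Of all genes tested, 6.59% were higher in every TSA(0-8h) embryo than in every control. In TSA(0-8h)+VC(0-8h) Hpf1 was at 355 and 258 RPKM, between these groups. With TSA(0-8h)+VC(8-15h) it was at 127, 43.3 and 97.8 RPKM, all below every TSA(0-8h) embryo (so were 3.44% of genes tested) and overlapping the controls. The VC(0-8h) embryo had 133 RPKM, inside the control range. The VC(8-15h) embryos had 52.3 and 0.772 RPKM, both below every control as for 6.51% of 7600 genes, and the second value rested on 6 reads in the library with the fewest genes.

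The mean was 898 ± 179 RPKM (SD, n = 3) with TSA(0-8h) and 148 ± 27.5 RPKM (SD, n = 3) in controls, a difference of 2.59 in log2(RPKM+1). Between TSA(0-8h)+VC(8-15h) and TSA(0-8h) the difference was -3.43. The median difference of all genes in these comparisons was -0.40 and 1.20, and scaling by the median ratio, which brings those medians to -0.02 and 0.06, gave 3.03 and -4.74 for Hpf1. The TSA(0-8h) embryos held the 3 highest Hpf1 values of all and each lane had 1 of them, so each was bound to be highest in its lane. The values were 812 against 355 RPKM in the next in lane 3, 1104 against 258 in lane 4 and 777 against 118 in lane 5. Oocyte markers were also highest in the TSA(0-8h) embryos of each lane but 1, the TSA(0-8h) embryo of lane 5 being at 5238 RPKM and its control at 6917. Their part in the Hpf1 levels was not tested.

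Parp1 and Parp2, the enzymes that HPF1 joins, showed no such separation. Parp1 was at 0.145, 54.1 and 6.48 RPKM in controls and at 55.8, 0.602 and 1.16 RPKM with TSA(0-8h). It was at 0.421, 0.706 and 68.7 RPKM with TSA(0-8h)+VC(8-15h), at 9.61 and 36.1 with TSA(0-8h)+VC(0-8h), at 52.1 and 1.47 with VC(8-15h) and at 27.8 with VC(0-8h). In each treatment of 3 embryos, 1 embryo held over 50 RPKM of Parp1 and the other two held under 7 RPKM. The reads behind these values ran from 3 to 3229.

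Parp2 was at 57.1, 14.7 and 2.30 RPKM in controls, at 7.96, 0.429 and 162 RPKM with TSA(0-8h) and at 90.8, 95.1 and 0.0911 RPKM with TSA(0-8h)+VC(8-15h). All 3 groups overlapped. The 2 VC(8-15h) embryos had 144 and 319 RPKM, above every control, as for 9.12% of 7600 genes, while the VC(0-8h) embryo had 1.31 RPKM and the TSA(0-8h)+VC(0-8h) embryos had 1.20 and 4.99 RPKM. Over the 14 embryos the Pearson correlation of log2(RPKM+1) with Hpf1 was 0.10 for Parp1 and -0.49 for Parp2. These are descriptions over libraries that differ in depth and treatment.

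Sprtn separated the embryos by VC. It was at 0.871, 0.620 and 0.104 RPKM in controls and at 0.156, 0.605 and 0.442 RPKM with TSA(0-8h), which is 1 to 11 reads per embryo. With TSA(0-8h)+VC(8-15h) it was at 133, 193 and 244 RPKM, the highest 3 values of all, where 15.6% of genes tested had every such embryo above every control and 18.2% had every such embryo above every TSA(0-8h) embryo. The VC(0-8h) embryo had 99.7 RPKM, the TSA(0-8h)+VC(0-8h) embryos had 29.4 and 49.4 RPKM, and the VC(8-15h) embryos had 9.15 and 11.4 RPKM. The 8 embryos given VC, in either window and with or without TSA, thus had 9.15 to 244 RPKM and the 6 others 0.104 to 0.871 RPKM, with no overlap. The lowest VC embryo was 10.5-fold above the highest without VC. Of all 7600 genes compared in this way, 0.211% were higher in every VC embryo than in every other, and Sprtn was chosen as one of them.

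Within the VC embryos the level of Sprtn differed with the treatment. With VC(8-15h), the 3 embryos that had also received TSA held 133 to 244 RPKM and the 2 that had not held 9.15 and 11.4 RPKM. With VC(0-8h), the 2 embryos that had received TSA held less than the 1 that had not. The difference in log2(RPKM+1) was 6.95 between TSA(0-8h)+VC(8-15h) and control and 7.06 between TSA(0-8h)+VC(8-15h) and TSA(0-8h). Median-ratio scaling gave 6.32 and 6.15. Each lane held 1 TSA(0-8h)+VC(8-15h) embryo, at 133 RPKM in lane 3, 193 in lane 4 and 244 in lane 5. As these were the highest values of all, each was bound to be highest in its lane. The markers of the two-cell embryo were also higher on the whole with VC, with overlap (8.35 to 372 RPKM without it and 204 to 1175 with it), and their part in the Sprtn levels was not tested.

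**Figure D1:**
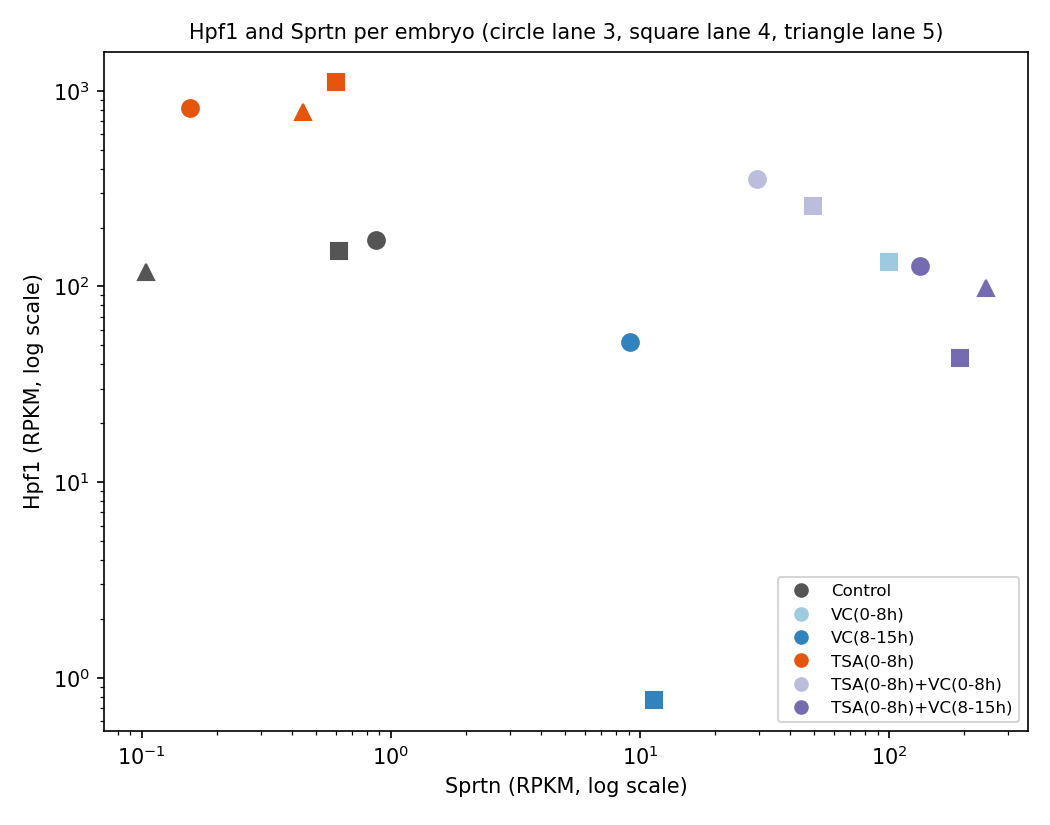
Hpf1 (vertical axis) against Sprtn (horizontal axis) in RPKM on log scales, 1 point per embryo, coloured by treatment and shaped by sequencing lane. The 3 TSA(0-8h) embryos sit at the upper left, with 777 RPKM of Hpf1 or more and under 1 RPKM of Sprtn, and all 8 VC embryos sit right of 9 RPKM of Sprtn.

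Hpf1 and Sprtn did not mirror each other over the embryos, with a Pearson correlation of -0.34. The genes whose log2(RPKM+1) was most like Hpf1, of 4411 genes at 1 RPKM or more in at least 7 embryos, were Gid4 (r = 0.93), Garre1 (0.86) and Zfp131 (0.81). VC(8-15h) replicate 2 was the lowest embryo for all of these, as for Hpf1. Among those most like Sprtn were Wdr45 (0.88) and Pspc1 (0.88). Both were at 0 in VC(8-15h) replicate 2, where Sprtn was at 11.4 RPKM.

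**Figure D2:**
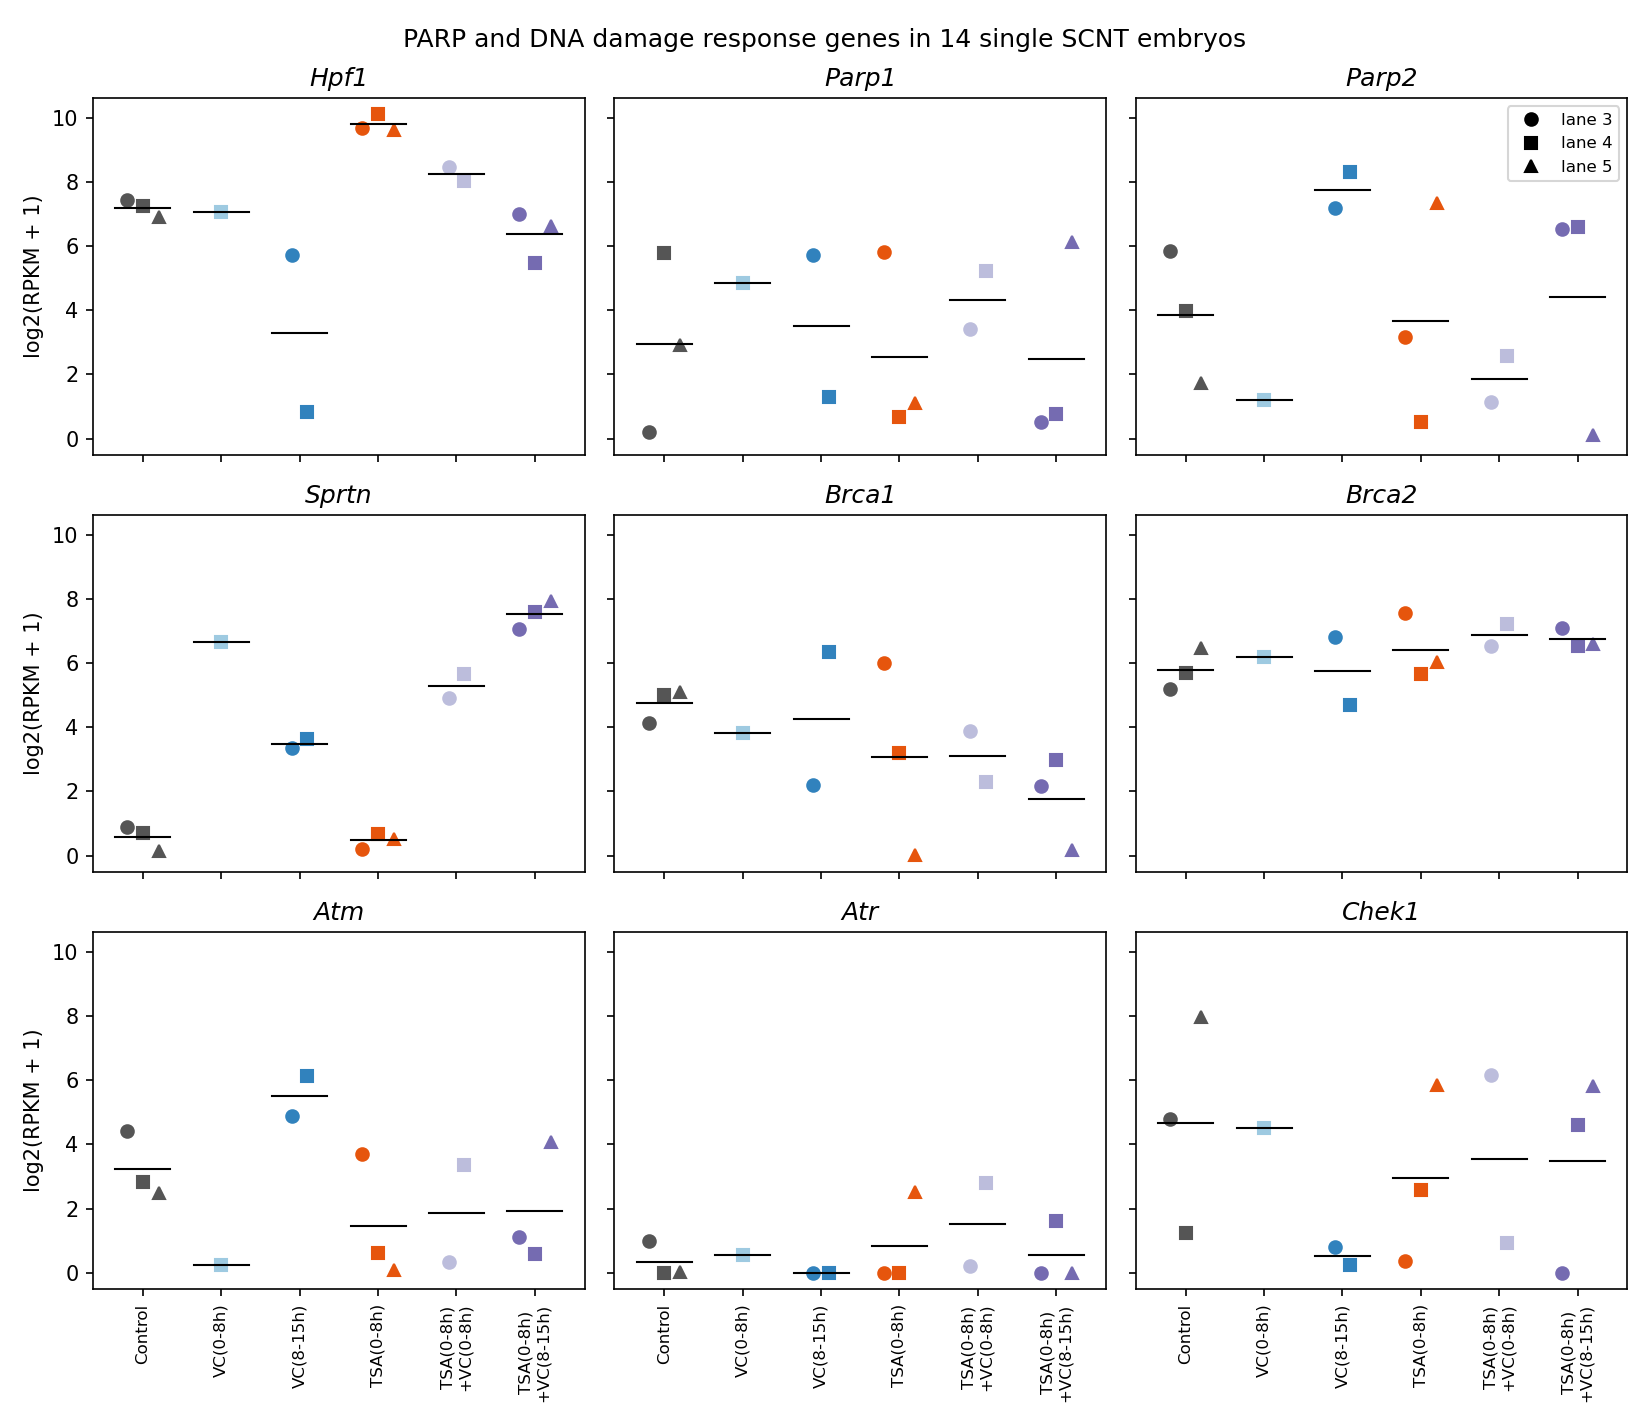
Level of each of the 9 genes in log2(RPKM+1), by treatment, with 1 point per embryo, the shape giving the sequencing lane and the line the mean of the treatment. Points of 1 treatment lie close together for Brca2, Sprtn and, outside VC(8-15h), Hpf1, and far apart for Parp1, Parp2 and Chek1.

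Brca1 and Brca2 differed in how steady they were. Brca1 was at 16.7, 31.0 and 33.4 RPKM in controls and at 3.46, 6.91 and 0.123 RPKM with TSA(0-8h)+VC(8-15h). All 3 of the latter were below every control, as for 5.72% of genes tested, and limma did not call the difference (adjusted p = 0.362). Brca1 entered that comparison through its level in controls alone, so its place below them is not independent of the filter. With TSA(0-8h) it was at 62.9, 8.28 and 0.0128 RPKM, which overlapped both groups. The lowest of these was 1 read, against 3020 reads in the control of the same lane. The remaining embryos had 13.1 RPKM with VC(0-8h), 3.60 and 80.1 RPKM with VC(8-15h) and 13.7 and 3.93 RPKM with TSA(0-8h)+VC(0-8h).

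Brca2 was the only one of the 9 at 10 RPKM or more in all 14 embryos. It was at 35.5, 50.9 and 87.1 RPKM in controls, at 188, 49.4 and 65.1 RPKM with TSA(0-8h) and at 136, 91.2 and 95.4 RPKM with TSA(0-8h)+VC(8-15h). Every TSA(0-8h)+VC(8-15h) embryo was above every control, as for 15.6% of genes tested. The nearest pair differed by 1.05-fold, and the adjusted p from limma was 0.674. The other embryos had 72.2 RPKM with VC(0-8h), 112 and 24.7 RPKM with VC(8-15h) and 92.0 and 149 RPKM with TSA(0-8h)+VC(0-8h). Brca2 spans chr5:151325205-151372321 on the plus strand in mm9, and 2 small nuclear RNA genes lie inside that span. All of its reads were on 1 of 2 listed transcripts, the other being at 0 throughout.

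Of the 3 checkpoint kinases, Atm was at 20.4, 6.12 and 4.58 RPKM in controls. It was at 12.1, 0.546 and 0.0498 RPKM with TSA(0-8h) and at 1.15, 0.505 and 16.0 RPKM with TSA(0-8h)+VC(8-15h), and these 3 groups overlapped. As with Parp2, both VC(8-15h) embryos, at 28.4 and 69.7 RPKM, were above every control, a separation that 9.12% of genes showed. Atm was at 0.177 RPKM in the VC(0-8h) embryo and at 0.256 and 9.31 RPKM with TSA(0-8h)+VC(0-8h).

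Atr was the lowest member, at 0 in 7 of the 14 embryos. At the depth of those libraries, 0 reads allow up to 0.0303 to 0.123 RPKM of this transcript, taking 3 reads as the floor and counting error only. It was at 1.00, 0 and 0.00911 RPKM in controls, at 0, 0 and 4.66 RPKM with TSA(0-8h) and at 0, 2.06 and 0 RPKM with TSA(0-8h)+VC(8-15h). The VC(0-8h) embryo had 0.465 RPKM, the TSA(0-8h)+VC(0-8h) embryos had 0.152 and 6.01 RPKM and both VC(8-15h) embryos had 0. A noncoding gene on the opposite strand, Gm16794, overlaps 9596 bases of the Atr span. The pseudogene 1700065D16Rik (273 bases) and a U1 small nuclear RNA gene (178 bases) overlap it too. Overlap of exons, over which RPKM was counted, was not examined. The sources used here do not say that counting used the strand, so reads from any shared exon could not be told apart.

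Chek1 had the largest SD within treatment of the 9 (2.97 in log2(RPKM+1)). It was at 26.9, 1.37 and 247 RPKM in controls, at 0.292, 4.97 and 57.2 RPKM with TSA(0-8h) and at 0, 23.3 and 55.4 RPKM with TSA(0-8h)+VC(8-15h). The 0 allows up to 0.203 RPKM at that depth. The 3 embryos of lane 5 had 55.4 to 247 RPKM, while lanes 3 and 4 held values from 0 to 70.3 RPKM. The VC(0-8h) embryo had 22.0 RPKM, the TSA(0-8h)+VC(0-8h) embryos had 70.3 and 0.899 RPKM, and both VC(8-15h) embryos, at 0.746 and 0.179 RPKM, were below every control, as for 6.51% of genes.

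These observations were set against tests over all genes with limma on log2(RPKM+1), with Benjamini-Hochberg adjustment over every gene tested and a threshold of 0.05. Genes at 1 RPKM or more in all 3 embryos of either group entered the pairwise comparisons. Of the 7 tested members, 5 passed that filter in TSA(0-8h)+VC(8-15h) against control (all but Parp1 and Atr), the same 5 in TSA(0-8h) against control and only Brca2 in TSA(0-8h)+VC(8-15h) against TSA(0-8h). Sprtn passed through its level in TSA(0-8h)+VC(8-15h) alone. In both comparisons against control, Parp2, Brca1, Atm and Chek1 passed through their level in controls alone, while Brca2 passed in both groups. For genes kept through 1 group, the filter used the values then tested and favours a difference toward that group. With a filter blind to group, 0 of 6 members tested were called in each pairwise comparison. The comparisons share their control or TSA(0-8h) embryos.

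None of the 7 was called by limma. The adjusted p ranged from 0.362 to 0.921 in TSA(0-8h)+VC(8-15h) against control and from 0.621 to 0.984 in TSA(0-8h) against control, and Brca2 had 0.913 in TSA(0-8h)+VC(8-15h) against TSA(0-8h). Over all genes the same fits called 0 of 3323 genes (0%), 0 of 2490 (0%) and 0 of 3140 (0%). At an unadjusted p under 0.05 they held 587, 371 and 573 genes (17.7%, 14.9% and 18.2%) and 0 of the 7 members. On recovered reads, limma-voom called 321, 2 and 286 genes and 0 of the 7. In TSA(0-8h)+VC(8-15h) against control, 1 of the 7 (Brca2) had every treated embryo above every control and 1 (Brca1) every treated embryo below, where 15.6% and 5.72% of all genes tested did so. In TSA(0-8h) against control and in TSA(0-8h)+VC(8-15h) against TSA(0-8h), all 7 overlapped. In TSA(0-8h) against control, 11.8% of genes had every treated embryo below every control.

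With all 14 embryos, genes at 1 RPKM or more in at least 3 embryos were tested, 7600 in all, and all 9 members passed. Among the 6 treatments the adjusted p of the 7 ranged from 0.973 to 0.990, and 0 of 7600 genes were called (357 at an unadjusted p under 0.05, or 4.7%, and 9 with limma-voom). For any TSA against no TSA (8 against 6 embryos, allowing for VC) 1 of 7600 genes was called (0.0132%), and for any VC against no VC 2 were (0.0263%). At an unadjusted p under 0.05 these held 4.91% and 7.91% of genes and 0 of the 7. They were Omt2a, an oocyte marker, higher with TSA and lower with VC, and Ccdc82, lower with VC, named after the values were seen. None of the 7 was among them, with adjusted p from 0.966 to 1.00 for TSA and from 0.901 to 0.997 for VC. The test of whether the VC(8-15h) difference changed with TSA (11 embryos) gave adjusted p from 0.903 to 0.999 for the 7 and called 0 of 6620 genes (295 at an unadjusted p under 0.05, or 4.46%, and 2 with limma-voom).

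The intervals show what these 14 embryos could not tell. For any TSA, the difference in log2(RPKM+1) was -0.61 for Parp1 (95% interval -3.37 to 2.16), -1.29 for Parp2 (-3.96 to 1.38), -1.76 for Brca1 (-4.39 to 0.88) and -1.82 for Atm (-4.56 to 0.92). It was 0.78 for Brca2 (-0.90 to 2.47), 0.63 for Atr (-0.78 to 2.05) and 0.14 for Chek1 (-2.66 to 2.95). Each interval held 0 and reached beyond 2 in at least 1 direction, so differences of that size remained possible. Without VC(8-15h) replicate 2, the library with the fewest genes, the values were -1.23 for Parp1, -0.48 for Parp2, -1.20 for Brca1, -1.23 for Atm, 0.47 for Brca2, 0.57 for Atr and -0.48 for Chek1.

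For any VC, the difference was 0.81 for Parp1 (95% interval -1.95 to 3.58), 0.61 for Parp2 (-2.06 to 3.27), -0.71 for Brca1 (-3.35 to 1.92) and 0.26 for Brca2 (-1.43 to 1.94). It was 0.46 for Atm (-2.28 to 3.20), -0.02 for Atr (-1.43 to 1.40) and -0.94 for Chek1 (-3.74 to 1.87). The median over all genes was 0.51 for VC and -0.01 for TSA. Without VC(8-15h) replicate 2 the VC differences were 1.31 for Parp1, -0.04 for Parp2, -1.15 for Brca1, 0.51 for Brca2, -0.01 for Atm, 0.03 for Atr and -0.44 for Chek1. With the sequencing lane as a term, the TSA differences were -1.89 (Atm) to 0.72 (Brca2) and the VC differences -1.23 (Brca1) to 0.97 (Parp1), all with adjusted p of 0.804 or more.

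**Figure D3:**
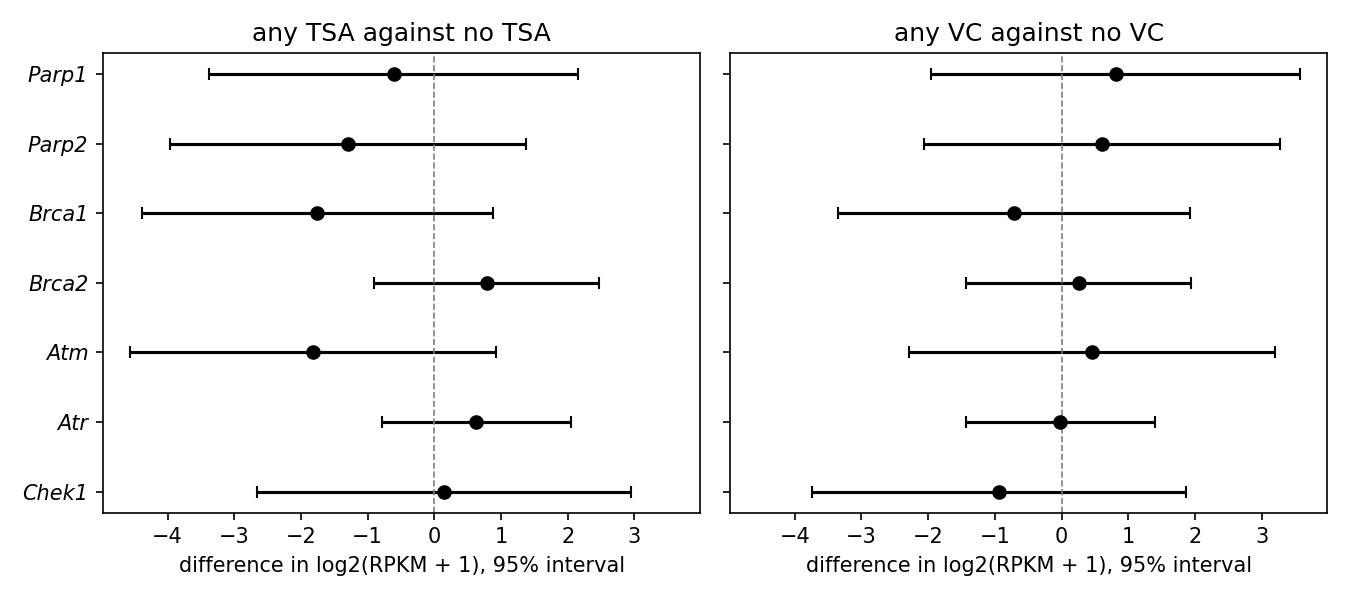
Difference in log2(RPKM+1) between embryos with and without TSA (left) and with and without VC (right) for the 7 tested genes, from the limma fit of 14 embryos. Points are differences and bars 95% intervals, and all 14 intervals cross 0.

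The members differed in their spread inside a treatment. The SD within treatment of log2(RPKM+1), over 14 embryos and 6 treatments, was 0.83 for Brca2, 2.97 for Chek1, 2.82 for Parp1 and 2.77 for Parp2, with a median of 2.11 over the 7600 genes. Chek1, Parp1 and Parp2 were thus at the 90.3, 85.6 and 84.2 percentile of all genes in spread and Brca2 at the 3.59 percentile. Brca1 (2.01) and Atm (1.67) were nearer the median. Atr (1.12) was near 0 in most embryos, and low values compress this scale. The SD was 1.31 for Hpf1 and 0.37 for Sprtn, whose values in 6 embryos were under 1 RPKM.

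**Figure D4:**
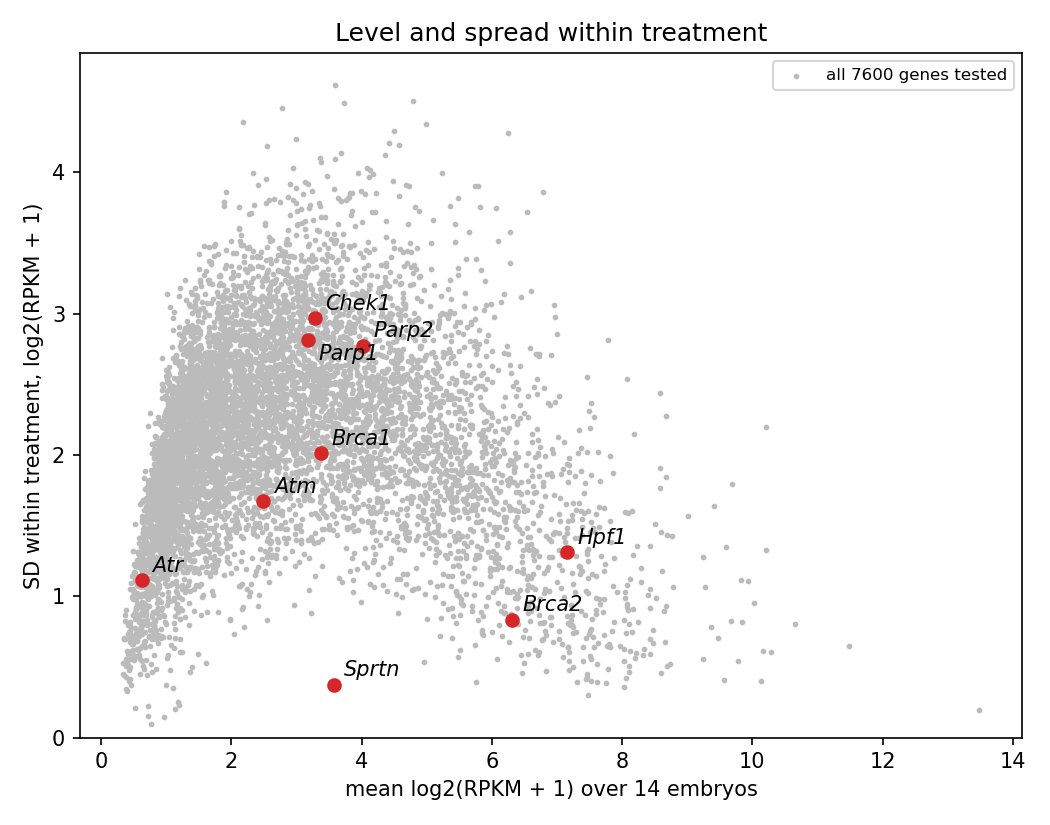
SD within treatment (vertical axis) against mean level (horizontal axis), both in log2(RPKM+1), for all 7600 genes tested over 14 embryos (grey) and the 9 genes described (red). Chek1, Parp1 and Parp2 lie high in the cloud, and Brca2 and Sprtn at its lower edge.

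Other genes of these pathways were read from 7 lists with 118 genes, and 0 of them was called by limma in any of the 7 tests as set out above. Other settings did call some. A minimum of 5 RPKM gave Rev1 and Tipin in TSA(0-8h) against control (2 of 20 list genes tested, beside 107 of all 1666 genes). In TSA(0-8h)+VC(8-15h) against TSA(0-8h) it gave Mad2l2, Rev1, Tipin and Trp53bp1 (4 of 27, beside 214 of 2286). A pseudocount of 0.1 RPKM gave Shprh in the latter comparison (1 of 38, beside 172 of 3140). Leaving out TSA(0-8h)+VC(8-15h) replicate 2 also gave Shprh (1 of 38, beside 120 of 3140). The genes named in these pairwise comparisons each passed the filter only through the group where they were high. With a filter blind to group, 0 of 43 and 0 of 55 list genes were called in these comparisons. No filter gave 7 of 112 among the 6 treatments, Tipin included, beside 642 of 15597. At an unadjusted p under 0.05, 2 of 37 genes tested were higher in TSA(0-8h)+VC(8-15h) than in control (5.41%, against 17.7% of all genes), 3 of 25 were lower in TSA(0-8h) than in control (12%, against 14.9%), and 5 of 38 were higher in TSA(0-8h)+VC(8-15h) than in TSA(0-8h) (13.2%, against 18.2%). The median differences of the list genes were 0.71, -0.46 and 1.56, where all genes had 0.78, -0.40 and 1.20. With limma-voom on recovered reads, 4 list genes were called in the last comparison (Mad2l2, Rev1, Tipin and Trp53bp1, named after their values were seen), or 10.5% of 38 against 9.11% of all genes, and 0 in the first and second.

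Of 24 genes of ADP-ribosylation, 9 reached 1 RPKM in at least 7 embryos and 5 in none. The most abundant was Tiparp, a mono-ADP-ribosyltransferase, with 56.3 to 747 RPKM and a median of 153. Of 19 genes of homologous recombination 7 reached that level in at least 7 embryos, the most abundant being Rad54l, a motor protein that aids strand exchange, with 0 to 224 RPKM. Checkpoint signalling had the largest share, 16 of 22 genes, and its most abundant gene was Timeless, a protein of the replication fork, with 0 to 3543 RPKM and a median of 25.0.

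Crosslink repair and translesion synthesis, the setting of SPRTN, had 9 of 17 genes at that level. Usp1, which removes ubiquitin from PCNA and FANCD2, led it at 43.7 to 401 RPKM and was above 1 RPKM in all 14 embryos. The Fanconi anaemia list had 2 of 12 genes there, led by Fancm, a DNA translocase (0.119 to 67.2 RPKM), and end joining 2 of 9, led by the polymerase Polm (0.569 to 200 RPKM). Of 15 targets of p53, 4 reached that level, and the most abundant by mean was Cdkn1a, an inhibitor of cyclin-dependent kinases, with 2010 RPKM in 1 embryo and a median of 2.28 RPKM.

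Some list genes are given here because of their values, after these were seen. Tipin, the partner of Timeless at the fork, was at 93.0 to 147 RPKM in controls, at 0 to 3.01 RPKM with TSA(0-8h) and at 55.2 to 109 RPKM with TSA(0-8h)+VC(8-15h). The TSA(0-8h) embryos did not overlap either group. Of all genes tested, 11.8% were lower in every TSA(0-8h) embryo than in every control. For 18.2%, every TSA(0-8h)+VC(8-15h) embryo was above every TSA(0-8h) embryo. The adjusted p of Tipin from limma was 0.149 against control and 0.0847 between TSA(0-8h)+VC(8-15h) and TSA(0-8h), and with a minimum of 5 RPKM both passed the threshold. At either minimum Tipin entered each comparison only through the group where it was high. The filter thus used the separation that was tested, and passing the threshold is a description. Mad2l2, a subunit of the translesion polymerase zeta, was at 26.0 to 194 RPKM with TSA(0-8h)+VC(8-15h), at 0.270 to 1.25 RPKM with TSA(0-8h) and at 0.421 to 14.5 RPKM in controls. Its TSA(0-8h)+VC(8-15h) values were above every TSA(0-8h) embryo, as for 18.2% of genes tested, and above every control, as for 15.6%. The adjusted p of Mad2l2 from limma was 0.0831 against TSA(0-8h) and 0.201 against control, and it entered both comparisons through TSA(0-8h)+VC(8-15h) alone.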

How the data were processed

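Per the study's methods, reads of single embryos (PicoPure extraction, Ovation Single Cell library, 2 rounds of PCR without molecular identifiers, Illumina HiSeq2000) were trimmed, mapped to mm9 with TopHat2 and counted over exons, and the authors deposited RPKM values, scaled to total counts and transcript length. Whether counting used the strand is not given in the sources used here. Groups and replicate numbers came from the sample labels, and the lane from the library identifier.

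Entries of 1 gene symbol were summed (25250 of 25650 entries have a symbol). The commonest ratio of an entry's RPKM between embryos was taken as that of entries with equal reads, and these ratios gave the library totals. The transcript length that made the reads of an entry whole numbers then gave its reads. Of the 14532 entries seen in 2 or more embryos, 14532 came out whole (100%, tolerance 0.001), and 3021540 to 13589389 reads were counted per embryo. Counting floors (3 reads) cover counting error only. Embryos of a treatment came from separate libraries. For each gene, limma draws the spread between them toward that of other genes, so p-values and intervals reflect both. For Brca2 in TSA(0-8h)+VC(8-15h) against control, the residual SD was 0.503 and the standard error 1.01. In the fits for any TSA and any VC, differences between the pooled treatments also enter the spread.

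Deposited RPKM values were analysed as log2(RPKM+1), a scale that understates changes of low genes, with limma 3.58.1 (lmFit, eBayes with trend, R 4.3.3). Adjusted p-values are Benjamini-Hochberg values over all genes tested, at 0.05, and genes under 1 RPKM were filtered as stated in the results. The authors' count-based test was not repeated, and the only fit of counts was limma-voom on the recovered reads. The fits were tested on simulated data, where recovery of known changes was required only at a spread smaller than the real one. That test thus does not show which changes could be called in these embryos. Python 3.11.15, numpy 2.4.6, pandas 2.3.3 and matplotlib 3.10.9 did the rest.

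The 9 members, the gene lists and the alternatives were chosen with earlier results of these data known. Named genes were the 9 members, the most abundant gene of each list, any list gene past the threshold and the 3 genes most correlated with Hpf1 and with Sprtn, and exceptions are stated. A gene so named is not reported here. Of the 118 list genes matched, 1 further listed name (Gcna) was not. Gene positions are those of GENCODE M1 (mm9), and promoter windows those of RefSeq (GRCm38.p6), with all 9 members matched. Alternatives were a pseudocount of 0.1 RPKM, no filter, a minimum of 5 RPKM, median-ratio scaling, quantile normalization, the transcript entry with the highest mean, a block for the replicate number or lane, a filter blind to group, a fit of all 14 embryos, leaving out each embryo and, chosen after seeing the data, limma-voom on recovered reads.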

Additional observations from a re-analysis of the deposited data

Results flagged for a closer look

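VC(8-15h) replicate 2 stood apart from the other embryos for 2 of the 9 genes. Hpf1 was at 0.772 RPKM there, far below the other 5 embryos without TSA and below the other 7 with VC, and Brca2 was at 24.7 RPKM, far below the other 7 embryos with VC. Each gap, divided by the range of its group on the log2 scale, passed Dixon's 95% critical value, used here only as a rule for flagging. Hpf1 was chosen by its values, the groups pool treatments and the same embryos recur across groups, so the flags are descriptions. The 9 genes were examined in 4 groupings, 36 groups in all, and chance flags about 1 in 20 groups. The library also had the fewest genes at 1 RPKM or more, 3130, and its part in these values was not tested.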

How the results depend on the processing

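None of the 7 tested genes was called in any of 133 alternative fits that tested it. All 7 were tested in 84 of these and as few as 1 in others, since the filter left the rest out. The number of genes called over the whole table did move. TSA(0-8h)+VC(8-15h) against control went from 0 to 107 with a pseudocount of 0.1, 184 with a minimum of 5 RPKM, 1 with the highest entry, 1 in a fit of all 14 embryos and 321 with limma-voom. TSA(0-8h) against control went from 0 to 100 (pseudocount), 107 (minimum of 5 RPKM), 2 (quantile), 5 (blind filter), 4 (fit of 14) and 2 (limma-voom). TSA(0-8h)+VC(8-15h) against TSA(0-8h) went from 0 to 172 (pseudocount), 214 (minimum of 5 RPKM), 3 (median-ratio), 1 (quantile) and 286 (limma-voom). The 6 treatments went from 0 to 2 (pseudocount), 642 (no filter), 2 (minimum of 5 RPKM), 9 (highest entry) and 9 (limma-voom). Any TSA went from 1 to 3 (pseudocount), 2 (minimum of 5 RPKM), 2 (highest entry) and 0 (no filter, median-ratio, quantile). Any VC went from 2 to 4 (no filter), 0 (median-ratio, quantile) and 1 (limma-voom), and the interaction from 0 to 2 (limma-voom). The minimum of 5 RPKM tests fewer genes. In the pairwise comparisons it keeps genes at that level in every embryo of either group, so it selects on the group values. The cause of these moves was not tested.

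The replicate number as a block gave 7, 5 and 153 calls in these pairwise comparisons, in the order above. In these comparisons embryos of the same number also shared a lane, so this block is a lane block too. The paper states that nuclear transfer was done in independent experiments, and the labels do not say which embryos shared one. The numbers were not taken to pair the embryos, since same-numbered embryos deviated together by a correlation of only -0.05 to 0.05. The lane as a block gave 0 calls for the 6 treatments, any TSA, any VC and the interaction.

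Leaving out 1 embryo gave 0 to 4, 0 to 2 and 0 to 120 calls in the pairwise comparisons. The highest came without control replicate 2, control replicate 3 and TSA(0-8h)+VC(8-15h) replicate 2. It gave 0 to 2 for the 6 treatments, 0 to 2 for any TSA, 0 to 5 for any VC and 0 to 1 for the interaction.

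Of 306 alternative values of the TSA and VC differences of the 7 genes, 280 kept their sign and 26 reversed it. For any TSA, Chek1 (0.14) fell to -0.33 with the lane block, -0.21 with limma-voom and -0.48 to 0.97 without 1 embryo. For any VC, Parp2 became -0.19 (quantile) and -0.039 to 1.64 without 1 embryo, Brca2 -0.46 (median-ratio), Atm -0.53 (quantile) and -0.0096 to 1.14, Chek1 0.0028 with the lane block, Brca1 -1.45 to 0.0097 without 1 embryo, and Atr 0.11 (pseudocount), 0.19 (limma-voom) and -0.27 to 0.37.

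Median-ratio scaling moved the share of higher genes among those at an unadjusted p under 0.05 from 78.7% to 61.8%, 36.7% to 48.6% and 88.1% to 57.3% in the pairwise comparisons.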
